A study of Mus musculus with 14 samples.

Results

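The 37 genes of the mouse mitochondrial genome were examined in liver RNA as 1 group of transcripts. They are all genes that the deposited count table places on the mitochondrial chromosome (MT, GRCm38), out of 55487 genes in the table, and comprise 13 messenger RNA (mRNA) genes, 2 ribosomal RNA (rRNA) genes and 22 transfer RNA (tRNA) genes. The study asked how oral indole, a tryptophan metabolite made by gut bacteria, acts on glucose homeostasis. Its liver samples came from 14 TALLYHO mice, an inbred strain that is a polygenic model of type 2 diabetes. In 1 group (n=7) the mice received water as vehicle, and in the other (n=7) they received 20 mg/kg indole. Mice were gavaged 2 times a day over 7 days, and tissue was taken after metabolic tests that followed, with further doses between the tests. The mice were 8 to 12 weeks old, the right liver lobe was sampled, and the labels give neither a batch nor a pairing. All 14 mice carry the TALLYHO background, so no non-diabetic group was available for comparison here.

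The mitochondrial genome is a small circular DNA that is present in many copies per cell. Its mRNAs encode core subunits of respiratory complexes I, III and IV and of ATP synthase (complex V), and its rRNAs and tRNAs serve the mitochondrion's own ribosomes. Both strands are transcribed from promoters in the control region as long precursor RNAs, which are cut mainly at the tRNAs that lie between the other genes. All proteins needed to copy, transcribe, process and translate this genome are imported from the cytosol and encoded in the nucleus. In liver, oxidative phosphorylation supplies the ATP used for gluconeogenesis and urea synthesis.

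The 14 libraries were made from polyadenylated RNA with strand-specific chemistry and held 15197498 to 21060376 counts each, on 16517 to 17901 genes. The 7 hepatocyte markers examined were all detected, led by *Alb* (serum albumin) with a mean of 64704 counts per 1000000 counts (CPM) over the 14 libraries. The adipocyte and the striated muscle markers each summed to at most 0.135 CPM in any library. No library repeated the counts of another of its group within sampling noise (lowest chi-square per degree of freedom 15.7), and each was counted as 1 sample, as labelled. In the comparison of indole with water over 12653 genes, 0 genes passed an adjusted *p* of 0.05 in edgeR's quasi-likelihood test with Benjamini–Hochberg adjustment, and 482 genes (3.81%) had an unadjusted *p* below 0.05. DESeq2 on the same genes gave 1 gene (0.0079%) at an adjusted *p* below 0.05.

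The genes are packed closely along the chromosome, which bears on how reads can be assigned to them. Of 36 neighbouring pairs, 9 share bases and 12 have no base between them, and the widest gap is 32 bases. By strand, 28 genes lie on the + strand and 9 on the − strand, the latter being *mt-Nd6* and 8 tRNA genes. The sequences at 3 overlaps of mRNA genes are shown because reads there bear on both genes. At the first and the second overlap both genes lie on the + strand, while at the third they lie on opposite strands, so that the strand of a read, where counting used it, tells them apart. They were read from GENCODE M21 transcripts (GRCm38), 5′ to 3′ on the + strand, and capitals mark the bases shared by both genes. The first covers chrMT:7907-7989 and holds the 43 bases at which *mt-Atp8* ends and *mt-Atp6* has begun. The second covers chrMT:10147-10193, with 7 shared bases, and the third covers chrMT:13532-13585, with 14 bases at which the ends of *mt-Nd5* (+ strand) and *mt-Nd6* (− strand) overlap.
mt-Atp8 / mt-Atp6: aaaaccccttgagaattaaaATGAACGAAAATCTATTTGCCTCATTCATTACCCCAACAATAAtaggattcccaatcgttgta
mt-Nd4l / mt-Nd4: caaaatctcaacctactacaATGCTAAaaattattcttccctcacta
mt-Nd5 / mt-Nd6: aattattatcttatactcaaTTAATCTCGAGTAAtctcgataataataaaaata

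Counts on mitochondrial genes made up close to the same share of every library. In water-treated mice the share was lowest at 4.43% (G11), with a median of 5.21%, and highest at 5.85% (G1). In indole-treated mice it was lowest at 4.90% (G14), with a median of 5.57%, and highest at 6.04% (G12). The ranges of the groups overlapped over most of their width, and 5 of 7 indole libraries exceeded the water median. The means were 5.21 ± 0.459% (SD, n=7) for water and 5.55 ± 0.432% for indole. Their difference, 0.337 percentage points, was smaller than the pooled SD of 0.446 and fell to 0.207 without the water library G11. In whole tissue, fewer cells of a type and less RNA per cell cannot be told apart.

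**Figure D1:**
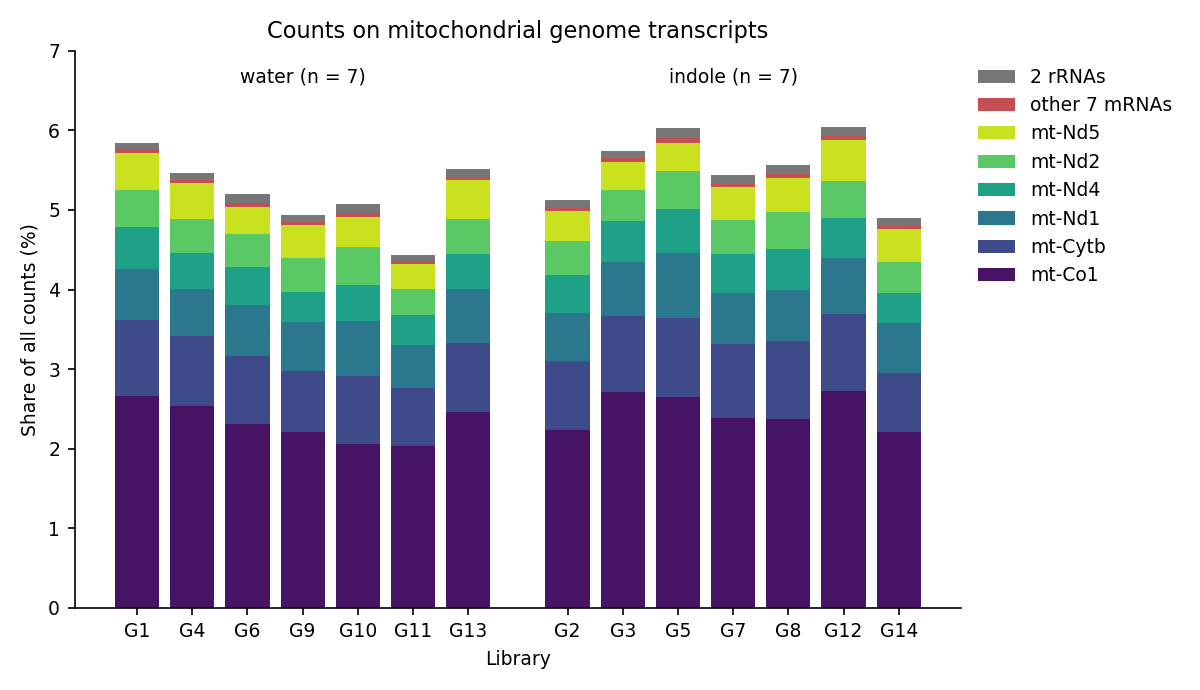
Share of all counts (%) that fell on mitochondrial mRNAs and rRNAs in each of the 14 libraries, stacked by transcript, water on the left and indole on the right. Bars reach between 4.43% (G11) and 6.04% (G12), and in each of them *mt-Co1* is the largest segment.

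Within these counts the mRNAs took nearly everything. Their part of the mitochondrial counts ranged from 97.7% to 98.5% over the 14 libraries, and that of the rRNAs ranged from 1.46% to 2.26%. The 22 tRNA genes together received 2674 of 13287071 mitochondrial counts (0.0201%). These proportions describe RNA that passed poly(A) selection, not the amounts of each RNA class in the tissue.

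The abundance of the mRNAs was very uneven. *mt-Co1*, which encodes the catalytic subunit of complex IV, was the third most abundant of all genes in the table and made up 41.5% to 47.9% of mitochondrial mRNA counts. With *mt-Cytb* (the cytochrome *b* of complex III) and the complex I subunit genes *mt-Nd1*, *mt-Nd4*, *mt-Nd2* and *mt-Nd5*, it formed a set of 6 genes that were all among the 40 most abundant in the table. These 6 held between 98.9% and 99.3% of the mitochondrial mRNA counts of each library. They varied between mice about as much as other abundant liver transcripts. The highest library was 1.38-fold to 1.66-fold the lowest for the 6, with a median of 1.57-fold, against a median of 1.60-fold for the other 34 of the 40.

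Levels of different genes were compared as CPM per kilobase of gene length. On this scale *mt-Co1* had a median of 15394 (range over 14 libraries 13200 to 17656). *mt-Cytb* followed with 7601 and *mt-Nd1* with 6684, and their ranges overlapped, although *mt-Cytb* was the higher in 13 of 14 libraries. *mt-Nd2* (4091), *mt-Nd4* (3497) and *mt-Nd5* (2276) came next, in that order in all 14 libraries, although the ranges of neighbours overlapped.

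A wide step separated this set from the rest. *mt-Rnr1*, the small-subunit rRNA, had a median of 424 per kilobase, 5.37-fold below *mt-Nd5*, with no overlap of the ranges. *mt-Rnr2*, the large-subunit rRNA, had 376 and was lower than *mt-Rnr1* in all 14 libraries. The other complex IV genes, *mt-Co2* (266) and *mt-Co3* (139), and the ATP synthase gene *mt-Atp6* (142) had lower medians, *mt-Co2* being below *mt-Rnr2* in 13 of 14 libraries with overlapping ranges. *mt-Atp6* and *mt-Co3* could not be ordered, since *mt-Atp6* was the higher of them in only 3 libraries despite its higher median.

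The lowest levels were found for short genes and for the single mRNA of the − strand. *mt-Nd6* had a median of 76.2 per kilobase, *mt-Nd4l* 30.1 and *mt-Nd3* 27.2, all of them subunits of complex I, and *mt-Nd4l* and *mt-Nd3* overlapped. *mt-Atp8*, a small subunit of ATP synthase, was last with 5.16 per kilobase, on only 6 to 31 counts per library. Ranges overlapped in 8 of the 14 neighbouring pairs of this order. Levels were also computed over only the positions where a read of 100 bases, a length assumed here, can start (length minus 99 bases). This left each of the 15 genes at its rank and brought *mt-Co1* from 2982-fold to 1640-fold the level of *mt-Atp8*. Both folds are uncertain, as *mt-Atp8* had few counts and lies between genes with a nuclear copy, described below.

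**Figure D2:**
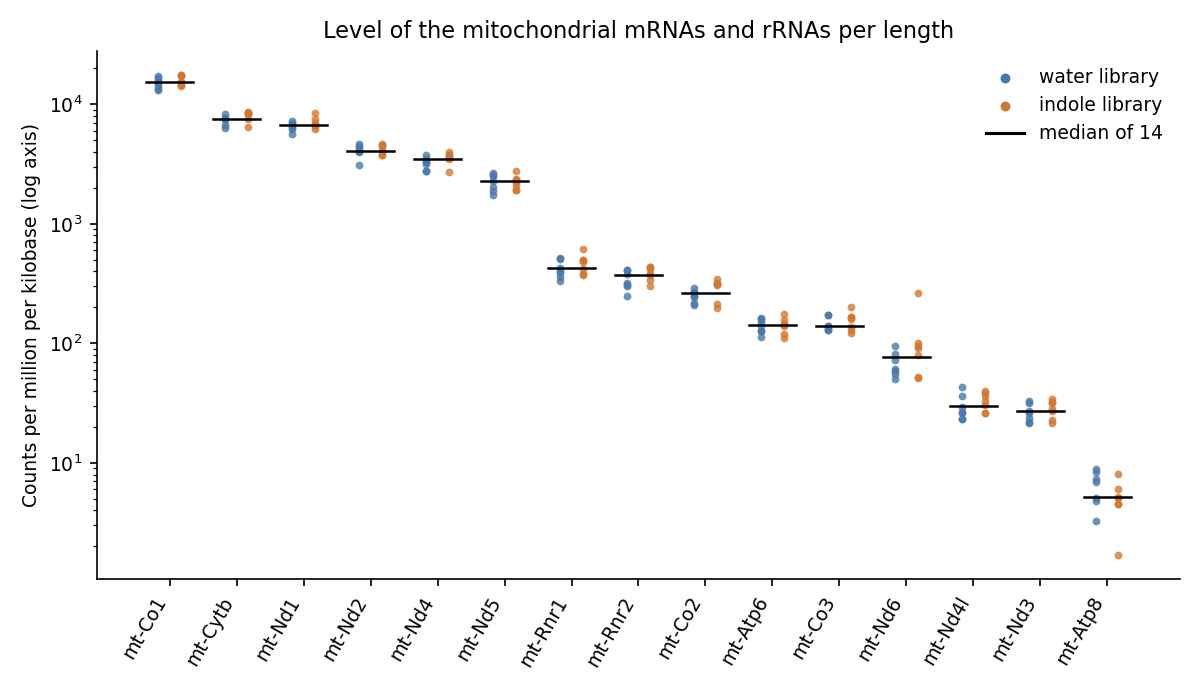
CPM per kilobase of gene length (log axis) for the 13 mRNA and 2 rRNA genes in each library, in order of their median over the 14 libraries (black line), with water in blue and indole in orange. Medians fall from 15394 for *mt-Co1* to 5.16 for *mt-Atp8*, with a gap of 5.37-fold between *mt-Nd5* and *mt-Rnr1*.

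Each respiratory complex also has subunits encoded in the nucleus, whose counts are given as a reference. Of the counts on the genes of complex IV, the 3 mitochondrial genes held 88.9% to 92.6% per library, against 11 nuclear genes tested. In complex I the 7 mitochondrial genes held 83.2% to 87.8%, against 35 nuclear genes. In complex III *mt-Cytb* alone held 82.3% to 86.1%, against 9 nuclear genes. In the counts obtained, ATP synthase was the reverse, its 2 mitochondrial genes holding 1.85% to 2.54%, against 15 nuclear genes. Per kilobase, *mt-Atp6* (142) lay between the median of the nuclear ATP synthase genes (88.2) and the highest of them, *Atp5b* (358). Gene lengths are those of the count table. They equal the transcript length for mitochondrial genes, but this was not checked for nuclear genes. Levels per kilobase of mitochondrial and nuclear genes may therefore not be on an equal footing. The share of ATP synthase and the level of *mt-Atp6* are uncertain. *mt-Atp6* has a nuclear copy, described below, and reads that match both places equally well were not counted. Some genes of complexes I and IV have such copies too. *mt-Atp8* had only 6 to 31 counts per library. The part of uncounted reads in the low share of ATP synthase was not tested.

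The genes with low counts between *mt-Co1* and *mt-Nd4* coincide with a nuclear copy of mitochondrial DNA. Chromosome 1 carries, on its − strand (chr1:24611535-24616197, 4663 bases), 7 annotated genes whose transcripts match *mt-Co1*, *mt-Co2*, *mt-Atp6*, *mt-Co3*, *mt-Nd3*, *mt-Nd4l* and *mt-Nd4* in the same order. The copies of *mt-Co2* (Gm28661), *mt-Atp6* (Gm10925), *mt-Co3* (Gm28437), *mt-Nd4l* (Gm10222) and of the first 876 bases of *mt-Nd4* (Gm28439) were identical to the mitochondrial gene over the aligned bases. Gm28438 differed from *mt-Nd3* at 1 base of 345 (T3C), and Gm29216 differed from the last 483 bases of *mt-Co1* at 1 base (A1066T). Positions are counted from the first base of the mitochondrial gene, whose base is given first. Of 6 distances between neighbouring copies, 5 equalled those in the mitochondrial genome.

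Both differences are shown because, in the reference sequences, they are the only bases in the aligned parts at which a read could be told apart. Sequences of the TALLYHO strain were not examined, so gene and copy may differ at other bases in these mice. Capitals mark the differing base, and the stretches are from GENCODE M21 transcripts on GRCm38: chrMT:9459-9486 and chr1:24613092-24613119 for the first pair, chrMT:6390-6418 and chr1:24616160-24616188 for the second, with the mitochondrial stretches on the + strand and the nuclear ones on the − strand.
mt-Nd3: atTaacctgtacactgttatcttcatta
Gm28438: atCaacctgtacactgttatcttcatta
mt-Co1: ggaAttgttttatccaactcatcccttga
Gm29216: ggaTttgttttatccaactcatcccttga

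The authors counted uniquely mapped reads only, and a read that matches both places equally well is not unique. Windows of 100 bases, a length chosen here, were searched for in other annotated transcripts. Of those in *mt-Co2*, *mt-Atp6*, *mt-Co3*, *mt-Nd3* and *mt-Nd4l*, 97.6% to 99.9% occur unchanged in another annotated transcript. The share was 60.8% for *mt-Nd4*, 30.8% for *mt-Co1* and 3.19% for *mt-Nd2*. For *mt-Nd1*, *mt-Nd5*, *mt-Nd6*, *mt-Cytb*, *mt-Atp8* and both rRNAs it was 0. The 5 genes with almost no window of their own had medians of 27.2 to 266 per kilobase, and the 6 most abundant mRNAs had at most 60.8% of windows shared. *mt-Atp8* lies between the stretches that correspond to the copies of *mt-Co2* and *mt-Atp6*, where chromosome 1 has no annotated gene, and its 204 bases include the 43 that it shares with *mt-Atp6*. The copies lie 233 bases apart on chromosome 1, as do the matching parts of the mitochondrial genome. The stretch between them could not be compared, so the 0 for *mt-Atp8* does not show that its sequence is unique. The part of the nuclear copy in the low counts was not tested, and the levels of these 5 genes and of *mt-Atp8* are therefore uncertain.

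The rows of the nuclear copies held 5917 to 9738 counts per library, 0.0329% to 0.0570% of all counts. Gm28661, Gm10925, Gm28437, Gm10222 and Gm28439 match their mitochondrial gene at every base of the reference. A read wholly within them is therefore, taken alone, not unique. Where the counts on these copies came from was not tested, and they are not taken as expression of the copies. For *mt-Atp6*, Gm10925 held a median of 56.9% of the counts of the pair and exceeded the mitochondrial gene in 14 of 14 libraries. For *mt-Nd3*, Gm28438 held a median of 63.9%, again more than the mitochondrial gene in 14 libraries. The copies of *mt-Nd4l* (46.9%), *mt-Co3* (40.2%) and *mt-Co2* (31.0%) held smaller parts, while those of *mt-Nd4* (0.652%) and *mt-Co1* (0.253%) held little. With gene and copy summed, the pairs of *mt-Co2*, *mt-Atp6* and *mt-Co3* reached medians of 390, 326 and 238 per kilobase, under *mt-Nd5* in all 14 libraries. Under the authors' rule, reads that match gene and copy equally well are in neither row. The sums do not restore them, so they are not corrected levels and cannot show where these genes rank. The pair of *mt-Co2* was then above *mt-Rnr2* in 8 libraries and that of *mt-Atp6* in 5, which changes the order given for the mitochondrial genes alone. The pairs of *mt-Nd3* and *mt-Nd4l* reached 73.6 and 59.9 per kilobase and were above *mt-Nd6* in 7 and 4 libraries. Between indole and water the 7 copies differed by 0.03 to 0.25 on the log2 scale, all higher with indole, with unadjusted *p* from 0.107 to 0.839 and adjusted *p* of 0.998 in edgeR.

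**Figure D3:**
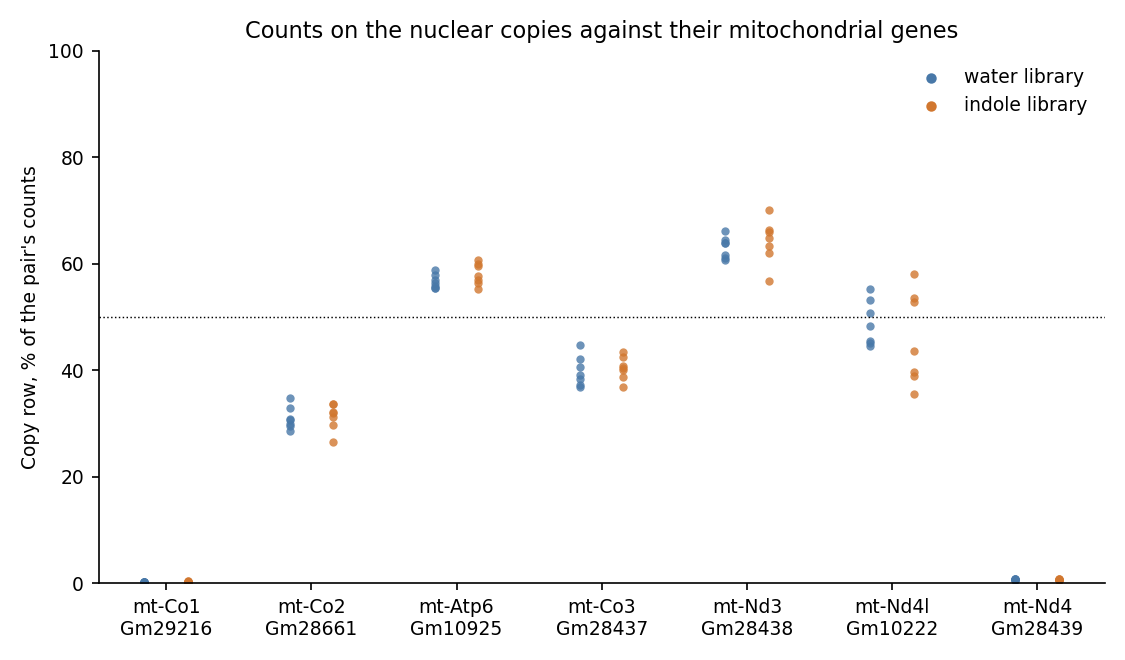
Counts on each chromosome 1 copy as a percentage of the counts of the copy and its mitochondrial gene together, 1 point per library, with water in blue and indole in orange and the dotted line at 50%. The copies of *mt-Atp6* and *mt-Nd3* lie above 50% in 14 libraries, that of *mt-Nd4l* falls on both sides, and those of *mt-Co1* and *mt-Nd4* stay below 1%.

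Reads on the tRNA genes were few and concentrated on *mt-Tw* (tRNA for tryptophan). It held 1431 of the 2674 tRNA counts (53.5%), with 64 to 174 per library. *mt-Tt* (threonine), *mt-Tl1* (leucine), *mt-Tp* (proline) and *mt-Tm* (methionine) followed with 235, 222, 210 and 190 counts over the 14 libraries. These 5 were the only tRNA genes with enough counts to be tested. Another 9 had between 1 and 130 counts, and 8 (*mt-Tf*, *mt-Tv*, *mt-Td*, *mt-Tk*, *mt-Tg*, *mt-Tr*, *mt-Ts2* and *mt-Tl2*) had 0 of 247148660 counts, which allows a level of up to 0.0121 CPM. All 8 without a count lie on the + strand, whereas each of the 8 tRNA genes of the − strand had at least 1. Of those without a count, *mt-Td*, *mt-Tk*, *mt-Tg* and *mt-Tr* lie between genes with a copy on chromosome 1, in stretches that could not be compared. Their reads may not map uniquely, so their limit holds for uniquely mapped reads only. *mt-Ts1* of the − strand lies there too and had 130 counts. Intervals and limits of this kind cover counting error only.

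*mt-Tw*, *mt-Tt* and *mt-Tp* are shown as the most counted tRNA, the 1 with the lowest *p* between groups and a − strand tRNA, in that order, at chrMT:4950-5016, chrMT:15289-15355 and chrMT:15356-15422. Sequences are those of GENCODE M21, 5′ to 3′ on the strand of the gene, and capitals mark the 2 bases that *mt-Tw* shares with the end of *mt-Nd2*.
mt-Tw: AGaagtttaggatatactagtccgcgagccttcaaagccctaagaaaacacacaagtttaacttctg
mt-Tt: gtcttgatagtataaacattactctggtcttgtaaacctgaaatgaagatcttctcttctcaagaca
mt-Tp: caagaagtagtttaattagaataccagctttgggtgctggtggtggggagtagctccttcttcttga

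Between indole and water, 20 mitochondrial genes could be tested: 13 mRNAs, 2 rRNAs and 5 tRNAs. At an adjusted *p* below 0.05, 0 of them passed (smallest adjusted *p*=0.998, edgeR). At an unadjusted *p* below 0.05, 1 of 20 passed in edgeR, against 3.81% of all genes tested (1.53% higher and 2.28% lower with indole), and 2 of 20 in DESeq2, against 4.20%. All of these were higher with indole. By sign alone, 18 of the 20 had a higher fitted level with indole, against 51.3% of all genes tested. Their median log2 fold change was 0.14, against 0.00 over all genes. Scaled to the mitochondrial counts themselves, 11 of 20 were higher and the median was 0.02, but this scaling removes a shared shift by its construction. No mitochondrial gene had groups that did not overlap, which 0.0474% of all genes had. Since these transcripts come from shared precursors and the same 14 libraries, their signs are not independent of each other.

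**Figure D4:**
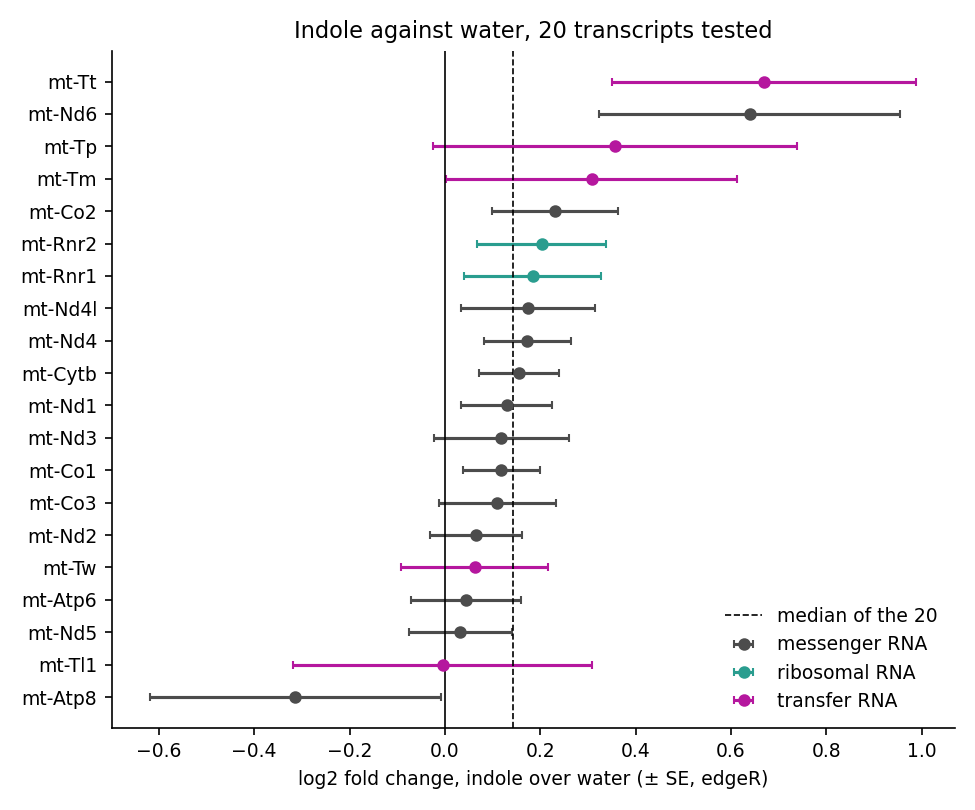
Log2 fold change of indole over water with its standard error (edgeR) for the 20 mitochondrial transcripts tested, coloured by RNA class, with the median of the 20 as a dashed line. Of these, 18 lie to the right of 0 and 2 to the left, and 0 passed an adjusted *p* of 0.05.

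The abundant mRNAs differed by less than 0.18 on the log2 scale. *mt-Co1* ranged from 20556 to 24869 TMM-normalised CPM in water-treated mice (median 23538) and from 20863 to 28447 in indole-treated mice (median 24805). Its groups overlapped, although 3 indole libraries lay above every water library (log2 fold change 0.12, SE 0.08; exact two-sided permutation test *p*=0.142, here and below over the same 14 libraries). *mt-Cytb* ranged from 7323 to 8902 with water (median 8672) and from 7721 to 10678 with indole (median 9788). Here 4 of 7 indole libraries were above all water libraries (0.16, SE 0.08; exact permutation *p*=0.0862).

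Among the complex I genes of this set, *mt-Nd4* gave the largest difference. It ranged from 3811 to 4943 CPM with water (median 4314) and from 3929 to 5901 with indole (median 5087), with 4 indole libraries above all water libraries (0.17, SE 0.09; exact permutation *p*=0.0938). *mt-Nd1* differed by 0.13 (SE 0.09), *mt-Nd2* by 0.06 (SE 0.10) and *mt-Nd5* by 0.03 (SE 0.11), with water and indole ranges that overlapped for each. The difference of *mt-Nd1* was 0.06 without indole G5, and that of *mt-Nd2* was 0.01 without water G11 and 0.02 without G5. Adjusted *p* was 0.998 for all 6 genes. A single indole library, G5, was the highest of the 14 for 9 of the 13 mRNAs, and a single water library, G11, was the lowest for 7. Without G2 or without G14, the indole libraries with the lowest sums of these mRNAs, 5 and 4 mitochondrial genes had an unadjusted *p* below 0.05, among them *mt-Co2*, *mt-Nd4* and *mt-Cytb*, and 0 had an adjusted *p* below 0.05. Over the whole table, fits that left out 1 library had 386 to 627 genes at this unadjusted threshold (edgeR), against 482 of 12653 with all libraries.

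The less abundant mRNAs had wider errors. *mt-Co2*, a subunit of complex IV, ranged from 138 to 206 CPM with water (median 170) and from 135 to 251 with indole (median 215), with 4 indole libraries above and 1 below every water library (0.23, SE 0.13; exact permutation *p*=0.195). *mt-Co3* differed by 0.11 (SE 0.12), *mt-Nd3* by 0.12 (SE 0.14), *mt-Nd4l* by 0.17 (SE 0.14) and *mt-Atp6* by 0.04 (SE 0.12). Without G5 these differences were 0.02 for *mt-Co3*, 0.05 for *mt-Nd3* and −0.03 for *mt-Atp6*, and without G14 that of *mt-Nd4l* was 0.11. *mt-Atp8* was the only mRNA with a lower fitted level in indole, by 0.31 on the log2 scale (SE 0.30; exact permutation *p*=0.347). Its counts were 12 to 31 in water and 6 to 27 in indole libraries, so that the counting error is large against its level. The difference of *mt-Atp8* was −0.15 without indole G3, −0.21 without water G6 and −0.48 without indole G5.

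Of the rRNAs, *mt-Rnr1* ranged from 321 to 514 CPM with water (median 354) and from 332 to 626 with indole (median 474). *mt-Rnr2* ranged from 394 to 681 with water (median 488) and from 440 to 736 with indole (median 631). Their differences, 0.18 (SE 0.14; exact permutation *p*=0.307) and 0.20 (SE 0.13; exact permutation *p*=0.191), came with 1 and 2 indole libraries above every water library. Without G5 the difference of *mt-Rnr1* was 0.09. Without G3 that of *mt-Rnr2* was 0.27, with an unadjusted *p* of 0.0447 and an adjusted *p* of 0.953 in edgeR.

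The single gene with an unadjusted *p* below 0.05 was *mt-Tt*. It had 0.443 to 0.999 CPM in water-treated mice (median 0.823) and 0.472 to 2.03 CPM in indole-treated mice (median 1.29). Of the indole libraries, 4 lay above every water library and the lowest lay within the water range (0.67, SE 0.32, *p*=0.0486; exact two-sided permutation test *p*=0.0915, n=7 per group; adjusted *p*=0.998). With 8 to 36 counts per library this tRNA is close to the limit of what was tested. The unadjusted call was lost in 9 of the 14 fits that left out 1 library: water G1, G4, G9, G10 or G11, or indole G5, G8, G12 or G14. The other 4 tRNAs tested were *mt-Tp* (0.36, SE 0.38), *mt-Tm* (0.31, SE 0.31), *mt-Tw* (0.06, SE 0.15) and *mt-Tl1* (−0.00, SE 0.31). The difference of *mt-Tp* was 0.02 without indole G3, that of *mt-Tm* was 0.19 without water G9, and that of *mt-Tw* was 0.01 without indole G7 or G12.

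Markers of blood and of other cell types, hepatocytes included, also differed between the libraries and are given beside these values. All 5 erythroid markers examined (*Hbb-bs*, *Hbb-bt*, *Hba-a1*, *Hba-a2* and *Alas2*) were detected in the table, and 5 of 5 were higher with indole at an unadjusted *p* below 0.05, with 0 at an adjusted *p* below 0.05. Their sum ranged from 204 to 383 CPM in water-treated mice and from 263 to 1091 CPM in indole-treated mice. The highest library for this sum was G5, which was also the highest for 9 mitochondrial mRNAs. The second, G14 with 1045 CPM, had the lowest mitochondrial share of the indole group. Without G5 the median log2 fold change of the 20 genes was 0.09, and without G14 it was 0.16. Of 5 sinusoidal endothelial markers, whose sum was also highest in G5, 5 were higher with indole by sign and 1 had an unadjusted *p* below 0.05. The 6 Kupffer cell markers summed to 57.8 to 170 CPM with water and 76.0 to 309 CPM with indole, 5 being higher by sign and 0 with an unadjusted *p* below 0.05. The sum of the 7 hepatocyte markers ranged from 72547 to 92453 CPM with water and from 67803 to 97482 CPM with indole. By sign 5 of them were higher and 2 lower with indole, and 1 of the higher had an unadjusted *p* below 0.05. Of 6 stellate cell markers, 3 were higher and 3 lower, 1 of the latter with an unadjusted *p* below 0.05. All 5 bile duct markers were lower with indole by sign (sums of 33.0 to 46.5 and 27.4 to 45.1 CPM), as were both mesothelial markers (medians of their sums 7.11 and 3.50 CPM), with 1 gene of each list at an unadjusted *p* below 0.05. For these lists 0 genes had an adjusted *p* below 0.05 in edgeR or DESeq2. Of all genes tested, 3.81% had an unadjusted *p* below 0.05 in edgeR (1.53% higher and 2.28% lower with indole). By sign, 51.3% of all genes were higher with indole. The part of cell type content, blood included, in the mitochondrial levels was not tested.

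The transcripts of the − strand set 1 indole library apart. *mt-Nd6*, which encodes the only complex I subunit on this strand, ranged from 26.4 to 46.1 CPM in water-treated mice (median 32.9) and from 27.4 to 127 CPM in indole-treated mice (median 44.4). The value of 127 belonged to G3, and the next highest indole library, G7, had 54.6. Over all libraries *mt-Nd6* gave a log2 fold change of 0.64 (SE 0.32, unadjusted *p*=0.0650, adjusted *p*=0.998, edgeR). DESeq2 gave 0.64 with an unadjusted *p* of 0.0408, and the exact two-sided permutation test gave *p*=0.130 (n=7 per group). Without G3 the fold change was 0.27 (SE 0.18, adjusted *p*=0.953). Without G8 or without G14 it was 0.75, with an unadjusted *p* of 0.0300 and 0.0306.

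G3 stood out for other genes of that strand too. It had the highest CPM of the 14 libraries for 6 of the 9 − strand genes and for 0 of the 20 + strand genes with counts. *mt-Ts1* (serine) had 37 counts in G3 against 2 to 18 in the others, *mt-Tp* had 39 against 3 to 25, and *mt-Tc* (cysteine) had 12 against 0 to 6. Summed, the 8 tRNA genes of the − strand had 118 counts in G3 and 9 to 46 in the other 13 libraries. The + strand tRNA genes had 170 counts in G3, within the range of 115 to 250 of the others. Of all mitochondrial counts, 0.252% came from − strand genes in G3 and 0.0501% to 0.0997% in the other libraries.

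Other measures of G3 are given for comparison. Its total of 17272770 counts and its mitochondrial share of 5.74% were inside the ranges of the other 13 libraries. It had the most genes detected (17901, against 16517 to 17551), the highest sum of the nuclear-retained RNAs *Malat1* and *Neat1* (92.3 CPM, against 12.4 to 70.2) and the highest share of counts on long non-coding RNA genes (0.312%, against 0.185% to 0.252%). Their part in the − strand counts was not tested.

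**Figure D5:**
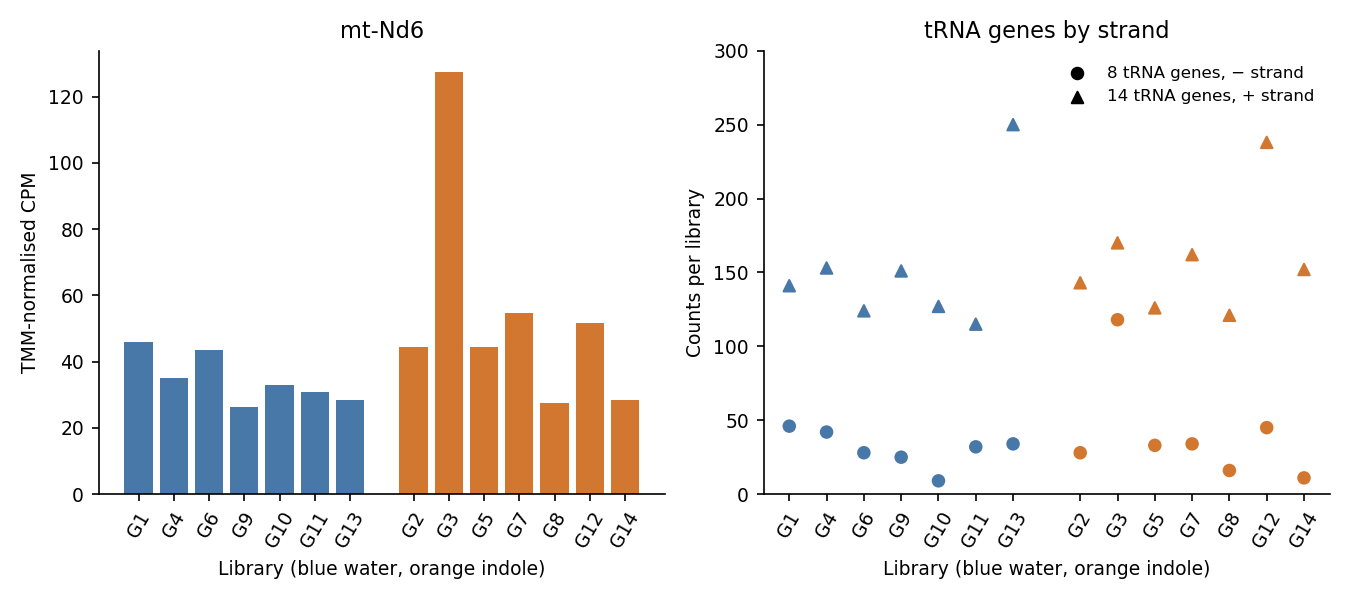
Left, TMM-normalised CPM of *mt-Nd6* in each library. Right, counts per library on the tRNA genes of the − strand (circles) and of the + strand (triangles), with water in blue and indole in orange. G3 stands at 127 CPM and 118 − strand tRNA counts, against at most 54.6 CPM and 46 counts elsewhere, while its + strand tRNA count of 170 lies inside the range of the others.

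Ratios of paired genes were compared within libraries, which removes differences of depth and of the total mitochondrial share. *mt-Nd6* was 0.586% to 1.23% of its overlapping neighbour *mt-Nd5* in water-treated mice (median 0.848%) and 0.622% to 3.95% in indole-treated mice (median 1.19%). Except in G3 (3.95%) the ratio was at most 1.24%. The log2 difference was 0.45 (exact two-sided permutation test, *p*=0.259, adjusted over 4 ratios *p*=0.587), and 0.16 without G3 (*p*=0.508).

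The 2 rRNAs of the same precursor stayed in a narrow ratio. *mt-Rnr2* had 117.5% to 151.5% of the counts of *mt-Rnr1* over the 14 libraries, and the groups differed by 0.03 on the log2 scale (exact permutation test, *p*=0.590, adjusted *p*=0.787). *mt-Nd4l* had 0.141% to 0.317% of the counts of *mt-Nd4*, with which it shares an mRNA (0.02, *p*=0.921 raw and adjusted, same test). *mt-Atp8* had 0.356% to 1.98% of the counts of *mt-Atp6*, its partner on another shared mRNA, with the lowest value in G3. Its difference was −0.38 (exact permutation test, *p*=0.294, adjusted *p*=0.587) and −0.15 without G3 (same test, *p*=0.583). Gene length, the overlapping bases and the windows shared with the nuclear copy all enter these ratios.

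The nuclear genes that serve the mitochondrial genome were read from the same fit. Over 11 lists, 239 of 243 genes were tested, 0 passed an adjusted *p* of 0.05, and 2 (0.837%) had an unadjusted *p* below 0.05, against 3.81% of all genes. *Pprc1*, a coactivator of the PGC-1 family that acts on mitochondrial biogenesis, ranged from 2.93 to 6.69 CPM with water and from 1.76 to 4.15 with indole (log2 fold change −0.61, SE 0.21, unadjusted *p*=0.00862). *Mrps18c*, a protein of the small mitochondrial ribosomal subunit, ranged from 12.8 to 15.7 CPM with water and from 13.9 to 22.6 with indole (0.25, SE 0.11, unadjusted *p*=0.0289). Both pairs of ranges overlapped, and adjusted *p* was 0.998 for each.

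Genes of mitochondrial DNA transcription, the step closest to these RNAs, differed little. *Polrmt*, the mitochondrial RNA polymerase, ranged from 14.6 to 20.1 CPM with water and from 14.4 to 20.3 with indole (−0.13, SE 0.10). *Tfam*, which packages the genome and starts its transcription, ranged from 42.5 to 47.3 with water and from 43.6 to 48.5 with indole (0.02, SE 0.06). *Lrpprc*, which stabilises mitochondrial mRNAs, ranged from 92.4 to 114 with water and from 88.1 to 120 with indole (−0.03, SE 0.08). The median log2 fold changes were 0.02 for the 9 transcription genes, 0.01 for 29 genes of RNA processing and stability, led by *Hsd17b10*, a subunit of mitochondrial RNase P, and 0.02 for 15 genes of DNA replication and upkeep, led by the DNA polymerase *Polg*. All 7 regulators of biogenesis were lower by sign (median −0.08), while 51.3% of all genes tested were higher. Of the 7, only *Pprc1* had an unadjusted *p* below 0.05 in edgeR. The most abundant was *Gabpa* (−0.05, SE 0.09).

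On the translation side, the medians were 0.02 for 11 translation factors, led by *Tufm* (0.05, SE 0.09), 0.03 for 22 aminoacyl-tRNA synthetases and 0.07 for 76 mitoribosomal proteins, led by *Mrpl12* (0.02, SE 0.07). *Lars2*, the leucyl-tRNA synthetase, varied most, from 279 to 653 CPM with water and from 153 to 1056 with indole (0.27, SE 0.35).

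The nuclear partners of the mitochondrial subunits were mostly higher with indole by sign, and none differed at the unadjusted threshold. In complexes I, III, IV and V, 67 of 70 nuclear subunits tested were higher with indole, against 51.3% of all genes, with a median log2 fold change of 0.11 and 0 at an unadjusted *p* below 0.05. Among abundant members were *Uqcrq* of complex III (0.12, SE 0.11), *Cox4i1* of complex IV (0.10, SE 0.10) and *Atp5b* of complex V (0.03, SE 0.08). The summed level of each of these 4 lists was highest in G5, the library that was also highest for most mitochondrial mRNAs. Without G5, the median over all 239 nuclear genes went from 0.06 to 0.03.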

How the data were processed

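Liver RNA of 14 TALLYHO mice (7 water, 7 indole) was grouped by the treatment in the sample labels. Per the study's methods and processing notes, the authors trimmed adapters, aligned reads to GRCm38 (Ensembl 102) with HISAT2, kept uniquely mapped reads and deposited raw counts per gene, without normalisation, for DESeq2. The counting tool and its strand setting are not given in the sources used here. Reads on overlapping genes or near-identical copies, and small − strand counts opposite abundant genes, depend on both. Poly(A) selection means that rRNA and tRNA counts are not tissue amounts. Libraries held 15197498 to 21060376 counts, and precision is lowest for tRNAs with few counts.

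Counts were fitted over the whole table with edgeR 4.0.16 (TMM, filterByExpr, robust quasi-likelihood) in R 4.3.3 on 12653 genes, with Benjamini–Hochberg adjustment over all of them. The standard error is the size of the log2 fold change divided by the square root of the *F* statistic. Levels are TMM-normalised CPM with SD, or CPM of the total count per kilobase between genes. Single genes and 4 ratios were also compared by exact two-sided permutation over 3432 relabellings, on log2 values with 1 count added (smallest possible *p*=0.000583). Sums over members were not tested. Each library was taken as 1 mouse; where libraries shared an animal, *p* values would measure only the spread between samples.

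Sequences, windows of 100 bases and copies came from GENCODE M21 transcripts (37 of 37 genes matched). They describe the GRCm38 reference, and the TALLYHO sequence of these genes and copies was not examined. Of 8 names listed as chromosome 1 copies, Gm29155 matched no mitochondrial gene and was left out. All mRNA and rRNA genes were named; tRNA genes were named for the 5 with most counts, an unadjusted *p* below 0.05 or the ends of ranges, and others where a range or count turned on them, the − strand tRNAs of G3 after their values were seen. Nuclear genes were named for an unadjusted *p* below 0.05 or as the most abundant of their list, besides *Polrmt*, *Tfam* and *Lrpprc*; 1 gene that met this rule is not reported here. The members and lists were chosen with earlier results of these data known. Alternatives were DESeq2 1.42.0 (with and without replaced counts, the latter added after seeing the data), RLE and upper quartile factors, other filters, scaling without or by mitochondrial counts, and leaving out each library. The procedure was tested on simulated data.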

Additional observations from a re-analysis of the deposited data

Results flagged for a closer look

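Values that lay far from the others of their group of 7 were sought with Dixon's criterion at its 95% level in 64 groups, of which chance alone marks about 1 in 20, and 4 were found. In the indole group, library G3 had 0.252% of its mitochondrial counts on − strand genes, the nearest other library having 0.0997%. In the same library *mt-Nd6* stood at 127 CPM, with 54.6 CPM next to it, and the ratio of *mt-Nd6* to *mt-Nd5* was 3.95%, with 1.24% next to it. These 3 values rest largely on the same *mt-Nd6* counts of 1 library. In the water group, library G13 had 8.23 CPM of *mt-Tw*, with 5.43 CPM next to it.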

How the results depend on the processing

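No paired analysis was possible because the library numbers G1 to G14 are each used once and pair no samples across groups. No adjusted call existed among the mitochondrial genes under any alternative, and their median log2 fold change (0.14) stayed between 0.09 and 0.19 without each library in turn. Scaling to mitochondrial counts moved the median of all genes to −0.11, gave 0 mitochondrial genes at an unadjusted *p* below 0.05 and turned *mt-Nd2* (−0.0543), *mt-Tw* (−0.0507), *mt-Co1* (−0.0042), *mt-Atp6* (−0.0822), *mt-Co3* (−0.0213), *mt-Nd3* (−0.0081) and *mt-Nd5* (−0.0824) below 0. Scaling of this kind removes a shift shared by the mitochondrial genes by its construction. *mt-Tl1*, near 0, turned to 0.00032 with RLE factors and 0.00025 with DESeq2, and lay between −0.200 and 0.129 without single libraries. *mt-Atp6* lay between −0.0338 and 0.101, *mt-Nd5* between −0.0318 and 0.0844, and the *mt-Nd4l* to *mt-Nd4* ratio between −0.0935 and 0.101. DESeq2, with or without replaced counts, gave 1 gene of the whole table at an adjusted *p* below 0.05 and 2 mitochondrial genes at an unadjusted *p* below 0.05. Dropping the filter on low counts enlarged the set of genes tested, whose size is not given here. In that larger set 1336 reached an unadjusted *p* under 0.05, a count not comparable with the 482 of 12653 filtered genes. Without single libraries, the count of mitochondrial genes at that threshold was 0 to 5 and that of nuclear mitochondrial genes 1 to 12. Over the whole table the same fits gave 386 to 627 genes, against 482 of 12653 with all libraries. The cause was not tested. Depth limits the tRNAs and *mt-Atp8* most.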
